A study of Mus musculus with 6 samples.

Results

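The genes described here had their highest or their lowest level on a polyacrylamide hydrogel of 20 kPa, the substrate of intermediate stiffness among 3 on which mouse ear fibroblasts had been kept. A gene was counted when both of its libraries from 20 kPa lay above, or both below, all 4 libraries from glass and from a 1 kPa gel. It also had to pass the edgeR quasi-likelihood test in both 20 kPa contrasts at a Benjamini-Hochberg adjusted p of 0.05. Of 16093 genes tested, 1137 met this rule. Highest on 20 kPa were 686 genes, which is 4.26% of the genes tested, and lowest were 451 genes, which is 2.8%. The members were thus chosen by their log2 CPM in the 6 libraries and by both 20 kPa contrasts, so the values of the members are a description and carry no test of their own.

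RNA was sequenced from dermal fibroblasts of the mouse ear cultured for 3 days on glass, which served as the control, on a 1 kPa gel or on a 20 kPa gel, with 2 libraries per substrate and 500000 cells cultured per sample. All 3 groups came from the same tissue and none carried a transgene or received a further agent that the labels name. The labels do not state the strain, age or sex of the mice, or whether the 2 libraries of a substrate came from separate animals or cultures. The spread between them may therefore be technical. Glass differs from the gels in material as well as in stiffness, and these differences cannot be told apart. Totals ran from 17669006 to 21350111 counts per library, at which 3 counts correspond to 0.139 to 0.174 CPM, the unit used below, in which the counts of a gene are scaled to a common library size. The first principal component, with 68.2% of the variance, separated glass from the gels, and the second, with 16.1%, separated the gels. The summed level of 9 fibroblast markers was 19590 CPM in the lowest library, on glass, and 32140 CPM in the highest, on 20 kPa.

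Fibroblasts hold on to their substrate through integrins and pull on it with actomyosin, and the resistance they meet reaches the nucleus through cytoskeletal tension and through co-activators such as YAP and the MRTF proteins. A stiff substrate is generally associated with stress fibres and proliferation, and a soft one with a rounded, quiescent state. A response that follows stiffness in 1 direction would leave an intermediate substrate between the extremes. In skin the fibroblasts build the collagen and elastic fibre network, and the ear holds cartilage beneath the dermis.

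The 20 kPa gel was the extreme less often than the other substrates. Under the same rule 1066 genes (6.62%) were highest and 650 (4.04%) lowest on 1 kPa, and 2440 (15.2%) were highest and 2628 (16.3%) lowest on glass. These counts share libraries and contrasts, and the differences between them were not tested. In the pairwise contrasts 22.3% of tested genes were higher and 19.6% lower on 20 kPa than on glass, while 8.94% were higher and 9.92% lower on 20 kPa than on 1 kPa. The lack of overlap alone, with no test, held for 2288 genes (14.2%) above and 1865 (11.6%) below all others.

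The members divided into 60.3% highest and the rest lowest, and with libraries scaled by total counts in place of TMM factors into 867 highest (75.3%) and 285 lowest. The number of genes highest on 20 kPa was 403 without 20 kPa replicate 1 and 437 without 1 kPa replicate 2. The number lowest was 277 without 1 kPa replicate 1, 223 without 1 kPa replicate 2, 238 without 20 kPa replicate 1 and 230 without 20 kPa replicate 2. No member was called in the opposite direction in any of these fits. The fits share libraries with the main one, and the direction of members no longer called was not counted.

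**Figure D1:**
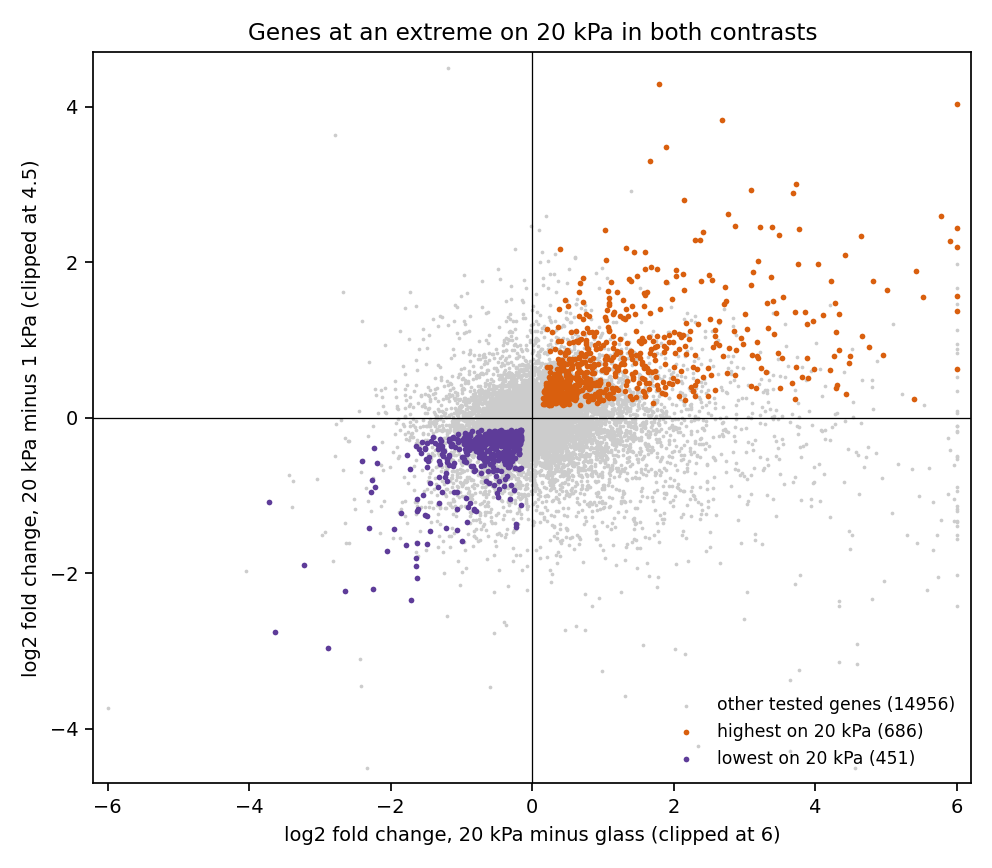
Each point is 1 of the 16093 tested genes, placed by its log2 fold change from glass to 20 kPa on the horizontal axis and from 1 kPa to 20 kPa on the vertical axis, with values beyond 6 and 4.5 drawn at the edge. The 686 genes highest on 20 kPa fill the upper right and the 451 lowest the lower left, and the rule that chose them fixes this position.

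Most members differed from the nearer substrate by a modest amount. For the genes highest on 20 kPa, the smaller of the 2 log2 fold changes had a median of 0.47, and 281 of the 686 (41%) reached 1.5-fold in both contrasts. The genes lowest on 20 kPa had a median of 0.30 for the size of the smaller change, and 65 of 451 (14.4%) reached 1.5-fold. Changes of at least 4-fold in both contrasts were found for 22 genes highest on 20 kPa and for 4 genes lowest on it. The latter, Scarna2, Scn3b, Npy4r and 9230105E05Rik, had under 2 CPM in every library, and were named after their values were seen.

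The members fell into 3 arrangements according to where 1 kPa lay. Among the genes highest on 20 kPa, 287 (41.8%) were also higher on 1 kPa than on glass, so that the order ran glass, 1 kPa, 20 kPa. A further 339 (49.4%) showed no call between 1 kPa and glass, and for 60 (8.75%) 1 kPa lay below glass. Among the genes lowest on 20 kPa, 186 (41.2%) were lower on 1 kPa than on glass, 218 (48.3%) had no call and 47 (10.4%) were higher on 1 kPa. Over all tested genes, 23% were higher and 22% lower on 1 kPa than on glass. The contrast of 1 kPa and glass is the difference of the 2 that the rule uses and is not independent of it. The log2 fold change to 1 kPa was smaller than that to glass for 458 of the 686 genes (66.8%) and for 300 of the 451 (66.5%).

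Around the threshold the values ran on without a gap. Just inside, the larger of the 2 adjusted p (edgeR quasi-likelihood test, Benjamini-Hochberg) was 0.0496 for Zc3h7b, 0.0497 for Plch1 and 0.0498 for Frk among the genes highest on 20 kPa. Just outside it was 0.0501 for Mysm1, 0.0501 for Osgep and 0.0503 for Gprasp2. For the genes lowest on 20 kPa, Cyld (0.0494), Txnrd1 (0.0497) and Cast (0.0497) lay inside, and Srebf1 (0.0502), Fancb (0.0503) and Sec24b (0.0504) outside.

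The genes with the largest differences included several secreted proteins and iron transport. Slc40a1 encodes ferroportin, the exporter of iron from cells, and measured 5.69 and 4.52 CPM on glass, 5.17 and 5.83 on the 1 kPa gel and 26.5 and 27.1 on the 20 kPa gel. Its level on 1 kPa lay within the range of glass or just above it, and both libraries from 20 kPa were about 5 times as high, with fold changes of 5.19 against glass and 4.88 against 1 kPa. Fam198a showed the same shape, at 1.02 and 1.51 CPM on glass, 1.66 and 1.06 on the 1 kPa gel and 8.43 and 8.57 on the 20 kPa gel. C1qtnf3, a secreted C1q and TNF related protein described in cartilage, was at 0.971 and 2.32 CPM on glass, 3.22 and 2.86 on the 1 kPa gel and 15.2 and 18.1 on the 20 kPa gel. No library from another substrate came near those from 20 kPa for either gene. Clec11a, a secreted growth factor of bone also known as osteolectin, was at 32.6 and 36.2 CPM on glass, 31.9 and 35.3 on the 1 kPa gel and 100.7 and 104 on the 20 kPa gel. Itgbl1, a secreted protein with integrin-beta-like repeats, was at 15.8 and 18.5 CPM on glass, 18.6 and 15.3 on the 1 kPa gel and 52.5 and 52.1 on the 20 kPa gel. For these 2 genes glass and 1 kPa were intermingled and 20 kPa stood about 3 times higher.

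Other members of this leading group climbed in steps from glass to 1 kPa to 20 kPa. Wfdc3, of the WAP-domain family that includes protease inhibitors, was at 1.48 and 1.1 CPM on glass, 4 and 5.04 on the 1 kPa gel and 17.7 and 17.8 on the 20 kPa gel. Rasl10b, a small GTPase of the Ras family, was at 0.647 and 0.464 CPM on glass, 8.48 and 9.47 on the 1 kPa gel and 24.5 and 28.1 on the 20 kPa gel. Calml3, a calmodulin-like calcium sensor, was at 0.185 and 0.522 CPM on glass, 1.85 and 1.51 on the 1 kPa gel and 9.11 and 7.99 on the 20 kPa gel. In each of these genes the 3 substrates did not overlap, and glass was the lowest. Chrdl2, a chordin-like antagonist of bone morphogenetic proteins (BMPs), was 5.39-fold above 1 kPa and 13.6-fold above glass, where it measured 0.694 and 0.29 CPM. Cytl1, a cytokine-like protein made by chondrocytes, was 3.42-fold above 1 kPa. Cd7, best known as a surface protein of T cells, was 2.82-fold above 1 kPa at 18.8 and 17.4 CPM.

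**Figure D2:**
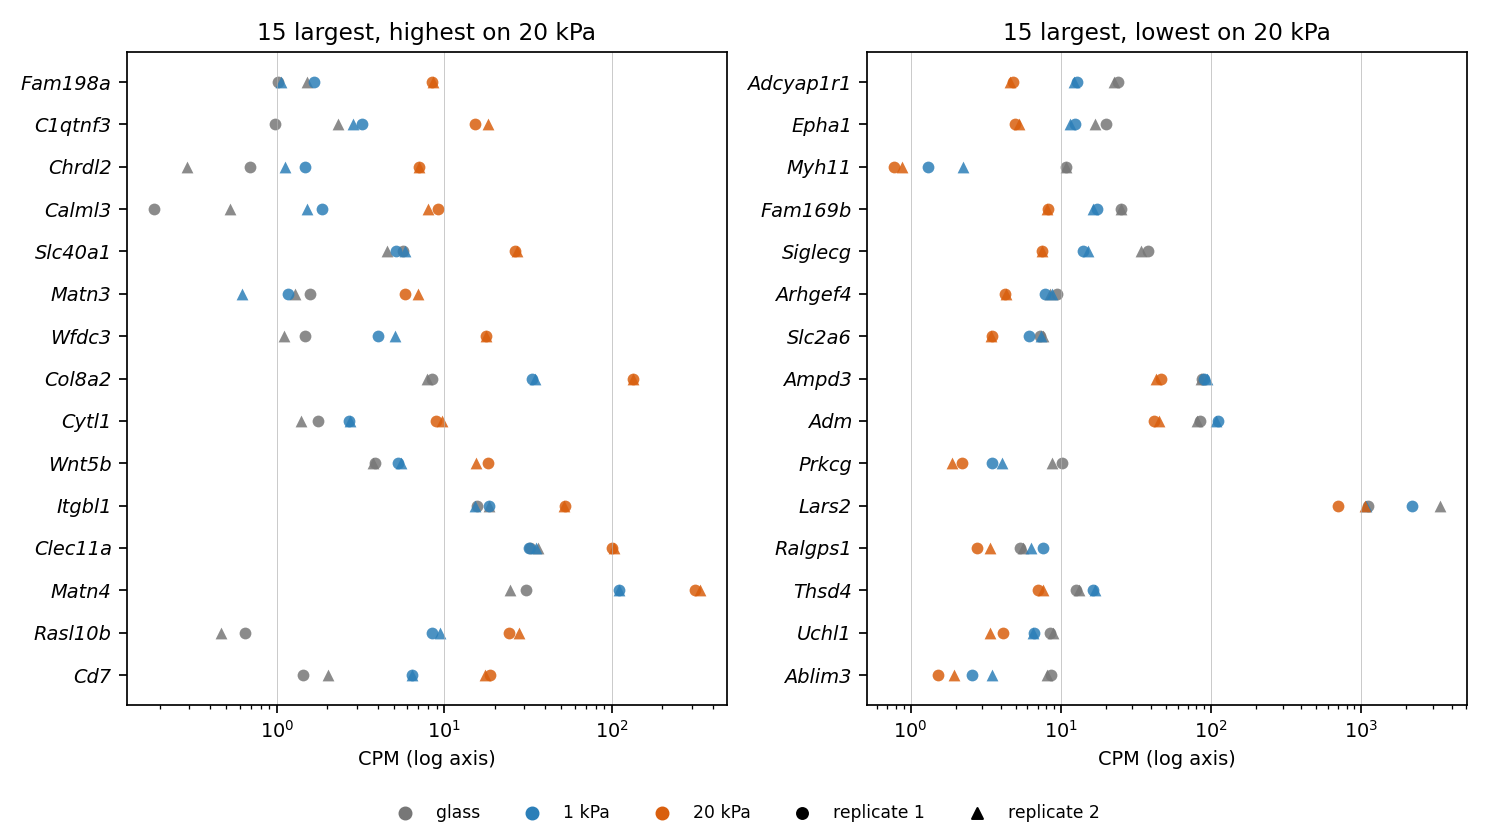
Each symbol is the CPM of 1 library on a log axis for the 15 genes highest (left) and the 15 lowest (right) on 20 kPa with the largest smaller-of-both change; colour gives the substrate and shape the replicate. The libraries from 20 kPa lie at the edge of every row, at 26.5 and 27.1 CPM for Slc40a1 against 4.52 to 5.83 CPM elsewhere, and in the row of Lars2 the 2 glass libraries lie far apart.

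Lists of genes by function, 56 in all, held 125 of the 686 genes highest on 20 kPa and 121 of the 451 lowest. The list with the largest share was cartilage and bone matrix with its regulators: 16 of its 27 tested genes (59.3%) were highest on 20 kPa and none was lowest. Its median log2 fold change on 20 kPa was 1.93 against glass and 0.63 against 1 kPa, beside medians of 0.02 and 0.00447 over all tested genes. Among lists with at least 5 members, cartilage was followed in the share highest on 20 kPa by fibre-forming matrix (31.4%), Wnt pathway genes (28.9%), the insulin-like growth factor axis (28.6%) and proteoglycans (22.9%). In that order, the median log2 fold changes of these 4 lists against 1 kPa were 0.03, 0.14, -0.15 and -0.07. Genes called higher and lower on 20 kPa than on 1 kPa numbered 14 and 7, 17 and 3, 7 and 7, and 8 and 10. Among the same lists, the largest shares lowest on 20 kPa were in G2 and mitosis (45.7%), immediate early genes (40.7%), glycolysis and hypoxia (25%) and tubulins (23.8%).

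**Figure D3:**
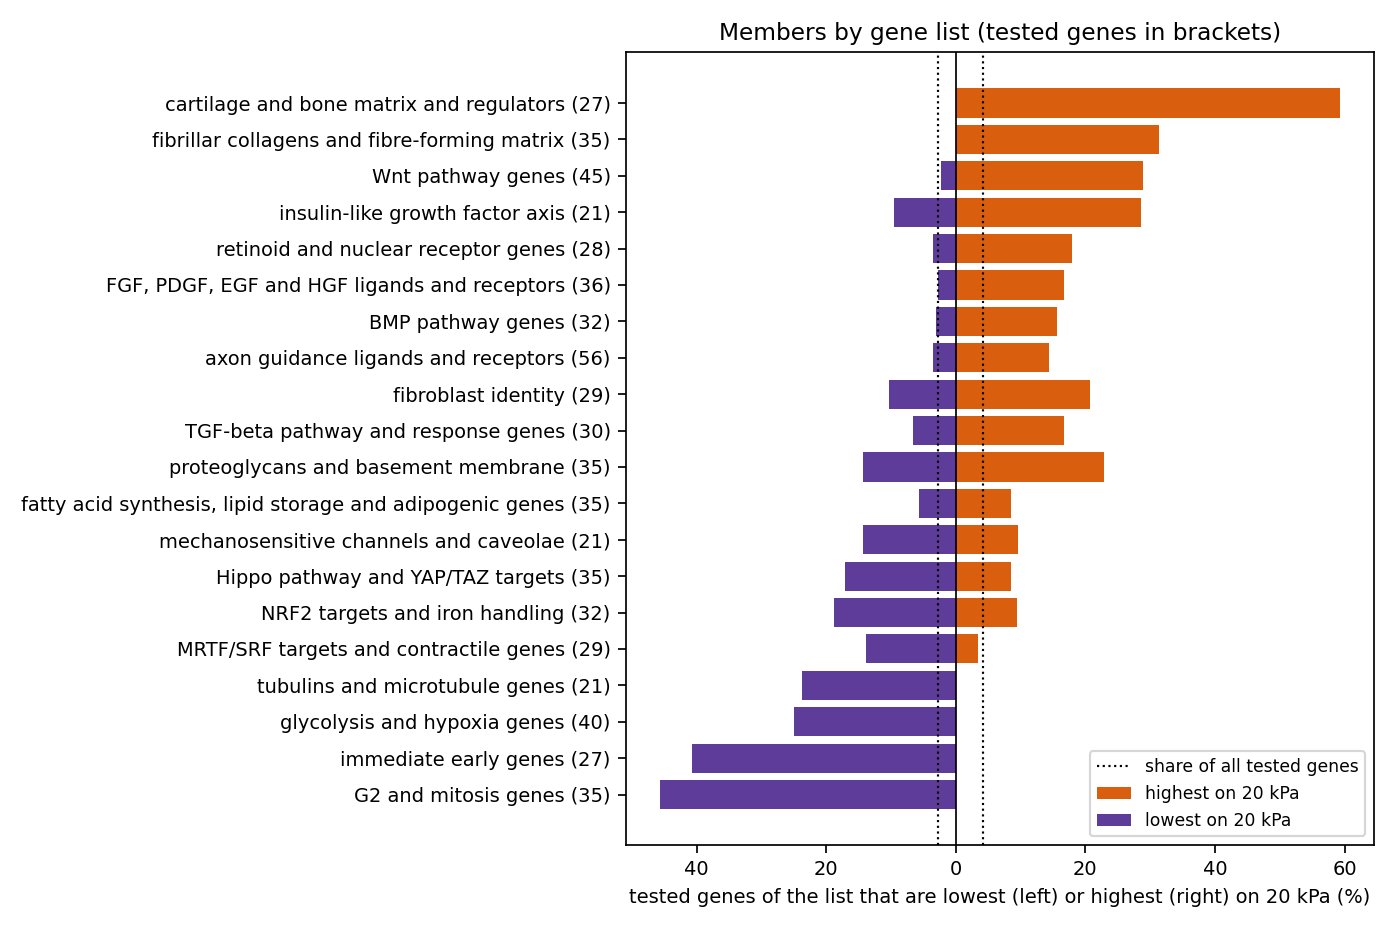
Bars give the share of the tested genes of each list that were highest (right, orange) or lowest (left, purple) on 20 kPa, for lists with at least 5 members; dotted lines mark the shares over all tested genes, 4.26% and 2.8%. Cartilage and bone matrix extends furthest to the right at 59.3%, and G2 and mitosis genes furthest to the left at 45.7%.

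Cartilage matrix is a hydrated gel of aggrecan held in a network of collagens II, IX and XI, with matrilins and COMP as linkers. The genes highest on 20 kPa covered each of these parts. Col2a1, the main fibrillar collagen of cartilage, was at 153 and 133 CPM on glass, 281 and 268 on the 1 kPa gel and 531 and 505 on the 20 kPa gel. Acan, which encodes aggrecan, was at 59.2 and 51.9 CPM on glass, 102 and 101.0 on the 1 kPa gel and 220.5 and 205 on the 20 kPa gel. Both rose in 2 steps, and the libraries of the 3 substrates did not overlap. The type IX chains Col9a1, Col9a2 and Col9a3 bind to the surface of collagen II fibrils. Col9a1 measured 3.74 and 3.31 CPM on glass, 23.7 and 21.6 on the 1 kPa gel and 51.1 and 53.5 on the 20 kPa gel, and Col9a3 measured 20.7 and 17.8 CPM on glass, 73.4 and 73.5 on the 1 kPa gel and 151 and 148 on the 20 kPa gel. Col9a2 followed the same order and was at 26.1 and 23.5 CPM on 20 kPa against 0.647 and 1.68 CPM on glass. The type XI chain gene Col11a2 did so as well, while Col11a1 was at 365 and 344 CPM on glass, 245 and 236 on the 1 kPa gel and 527 and 509 on the 20 kPa gel. In Col11a1 it was 1 kPa, and not glass, that was lowest.

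The linking and regulatory proteins of cartilage were split in the same manner. Matn4, a matrilin, was at 30.7 and 24.6 CPM on glass, 110.2 and 111 on the 1 kPa gel and 315 and 334 on the 20 kPa gel, which is 2.94-fold above 1 kPa. Matn3 was 6.96-fold above 1 kPa and 4.41-fold above glass, at 5.8 and 6.93 CPM on 20 kPa. Comp, Cilp2, Hapln1, Mgp, Col10a1, the chondromodulin gene Cnmd and the transcription factor gene Sox5 completed the 16. Mgp, an inhibitor of matrix calcification, was at 288 and 268 CPM on glass, 719 and 733 on the 1 kPa gel and 972 and 1026 on the 20 kPa gel. Sox9, the factor that directs cartilage formation, was no member, with 285 and 286 CPM on glass, 164 and 165 on the soft gel and 252 and 251 on 20 kPa. Of the 16 genes, 12 had 1 kPa above glass, 2 had it below and 2 had no call. Under the alternative settings that keep the rule, between 14 and 16 genes of the list were highest on 20 kPa.

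A panel of chondrocyte markers shares 5 members with this group, so its sum is not a separate result. The sum of 7 markers was 515 and 487 CPM on glass, 686 and 659 on the soft gel and 1204 and 1160 on 20 kPa. Of these markers 6 were tested, and 5 of them were highest on 20 kPa (Col2a1, Acan, Col9a1, Col11a2 and Matn3). All 5 are among the cartilage genes described above. Sox9, the other tested marker, was highest on glass, at 285 and 286 CPM against 252 and 251 on 20 kPa. Matn1, a defining marker of cartilage, was at 0.185 and 0.232 CPM on glass and at 0 in the 4 other libraries. A change in the number of cells of a type and a change in RNA per cell cannot be told apart in bulk RNA. The part that chondrocytes among the cells may have in these results was not tested.

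The fibre-forming matrix had 11 members of 35 tested genes, all highest on 20 kPa. Eln encodes elastin, the core of elastic fibres, and was at 24.6 and 23.7 CPM on glass, 175 and 165 on the 1 kPa gel and 477 and 466 on the 20 kPa gel. Mfap4 and Mfap2 encode microfibril-associated proteins of the same fibres, and Mfap4 was at 5.46 and 3.89 CPM on glass, 20.5 and 20.4 on the 1 kPa gel and 51.4 and 52.5 on the 20 kPa gel. Elastin thus stood 19.5-fold above glass and 2.77-fold above 1 kPa. Fbln5, which assembles elastic fibres, differed less and had no call between 1 kPa and glass, with 995 and 963 CPM on 20 kPa against 637 to 726 CPM in the other libraries. Postn, which encodes the matricellular protein periostin, was at 225 and 269 CPM on glass, 565 and 505 on the 1 kPa gel and 1193 and 1121 on the 20 kPa gel. Col8a2 was at 8.46 and 7.83 CPM on glass, 33.3 and 34.7 on the 1 kPa gel and 134 and 134 on the 20 kPa gel, and Col14a1, a fibril-associated collagen, was at 4.25 and 4.64 CPM on glass, 15.3 and 17.3 on the 1 kPa gel and 31.1 and 29.5 on the 20 kPa gel. The interstitial collagen gene Col3a1 was at 3118 and 2874 CPM on glass, 6547 and 6276 on the 1 kPa gel and 8625 and 8057 on the 20 kPa gel, so the step from 1 kPa to 20 kPa was 1.3-fold. Col1a1, the most common collagen of skin, was no member and reached 8058 and 7811 CPM on 1 kPa and 8145 and 8066 on 20 kPa.

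Over the genome, 13 of the 38 tested collagen chain genes (34.2%) were highest on 20 kPa and none was lowest, a family counted after the members had been seen. Beyond those named, it included Col8a1, Col10a1, Col27a1 and Col28a1. Spp1, which encodes osteopontin, and Sparc, which encodes osteonectin, completed the fibre-forming list with changes against 1 kPa of 0.27 and 0.19 on the log2 scale. Without 1 kPa replicate 2 the fibre-forming list had 9 members, the fewest of any alternative that keeps the rule.

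Small leucine-rich proteoglycans, short proteins that bind collagen fibrils and set their diameter, were divided in their order of substrates. Ogn, which encodes osteoglycin, was at 203 and 272 CPM on glass, 72.6 and 64.5 on the 1 kPa gel and 318 and 302 on the 20 kPa gel. Omd, which encodes osteomodulin, was at 10.2 and 15.6 CPM on glass, 4.63 and 5.16 on the 1 kPa gel and 25.3 and 26.8 on the 20 kPa gel. Aspn, which encodes asporin, was at 95.1 and 123 CPM on glass, 72 and 68 on the 1 kPa gel and 251 and 221 on the 20 kPa gel. In all 3 genes 1 kPa was lowest, glass intermediate and 20 kPa highest, with no overlap between substrates. Fmod, which encodes fibromodulin, instead ran upward from glass, at 56.2 and 49.8 CPM on glass, 80.3 and 85 on the 1 kPa gel and 119 and 120.0 on the 20 kPa gel. Dcn and Lum, which encode decorin and lumican of the same class, were no members, with glass far below both gels, Dcn at 144 and 171 CPM on glass, 3766 and 3318 on the 1 kPa gel and 2960.1 and 2866 on the 20 kPa gel and Lum at 40.5 and 51.1 CPM on glass, 982 and 894 on the 1 kPa gel and 909 and 858 on the 20 kPa gel. Sdc2, Nid2, Has2 and Gpc6 were also highest on 20 kPa, making 8 of 35 tested genes. Large components of the basement membrane and 2 glypicans were lowest on 20 kPa: Hspg2, Lamc1, Lamb2, Gpc1 and Gpc4, at log2 fold changes of -0.17 to -0.34 against 1 kPa. Hspg2, which encodes perlecan, was at 2219 and 2044 CPM on glass, 2121 and 2119 on the 1 kPa gel and 1715 and 1627 on the 20 kPa gel. The 8 became 5 without 20 kPa replicate 1. The 5 lowest became 2 without 1 kPa replicate 1, without 1 kPa replicate 2 or without 20 kPa replicate 2, and 3 without 20 kPa replicate 1. Ogn was no longer called with DESeq2.

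Wnt ligands signal through Frizzled receptors and LRP co-receptors, with secreted antagonists outside the cell and β-catenin and LEF/TCF factors inside. On 20 kPa 13 of 45 tested genes of the pathway were highest and 1 was lowest. Of the ligands, Wnt5b was highest, at 3.84 and 3.77 CPM on glass, 5.26 and 5.49 on the 1 kPa gel and 18.2 and 15.5 on the 20 kPa gel, and Wnt10b was lowest, at 2.5 and 2.78 CPM on glass, 1.85 and 1.74 on the 1 kPa gel and 0.877 and 0.92 on the 20 kPa gel. Among receptors and co-receptors Fzd3, Fzd7, Lrp6, Lgr4 and Lgr5 were highest, with Fzd3 at 4.39 and 4.47 CPM on glass, 5.95 and 7.4 on the 1 kPa gel and 10.9 and 9.4 on the 20 kPa gel. Fzd9, outside the list and named after its values were seen, was at 3.93 and 2.55 CPM on glass, 26.5 and 26.6 on the 1 kPa gel and 70.5 and 63 on the 20 kPa gel. Of the secreted antagonists Sfrp1, Sfrp2, Wif1 and Frzb were all highest on 20 kPa, and Frzb was at 17.1 and 15.7 CPM on glass, 13.4 and 11.99 on the 1 kPa gel and 25.2 and 25.3 on the 20 kPa gel. The antagonists differed in their order: Wif1 was at 1.9 and 1.86 CPM on glass, 28.3 and 27.1 on the 1 kPa gel and 39 and 35.4 on the 20 kPa gel, with 1 kPa far above glass, whereas Frzb was lowest on 1 kPa.

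Inside the cell, Lef1 and Ctnnb1, the gene of β-catenin, were highest on 20 kPa, together with the feedback inhibitor Nkd1. Lef1 was at 0.601 and 0.87 CPM on glass, 8.48 and 9.14 on the 1 kPa gel and 14.2 and 12.7 on the 20 kPa gel, with a step of 3.60 on the log2 scale from glass to 1 kPa and one of 0.61 from 1 kPa to 20 kPa. Ctnnb1 was at 670.5 and 713 CPM on glass, 599 and 579.7 on the 1 kPa gel and 819 and 761 on the 20 kPa gel and thus differed by 0.19 on the log2 scale from glass. Without 20 kPa replicate 1 the count of highest Wnt genes was 7, and Lef1 and Fzd3 were then no longer called. Wnt10b, with under 3 CPM throughout, was not called without either 1 kPa library or either 20 kPa library.

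Insulin-like growth factor 1 acts through the receptor IGF1R, is held by IGF-binding proteins and is set free by the pappalysin proteases that cut them. The ligand, 2 proteases and 3 binding proteins were highest on 20 kPa, 6 of 21 tested genes, while the receptor and Igfbp6 were lowest. Igf1 was at 7.35 and 9.51 CPM on glass, 85.1 and 85.7 on the 1 kPa gel and 137 and 127 on the 20 kPa gel. Pappa2 was at 4.11 and 3.13 CPM on glass, 19.9 and 21.6 on the 1 kPa gel and 55.9 and 50.8 on the 20 kPa gel, and Pappa at 30.6 and 33.3 CPM on glass, 57.2 and 59.1 on the 1 kPa gel and 83.6 and 77.2 on the 20 kPa gel. Both protease genes and Igf1 ran upward from glass through 1 kPa to 20 kPa. Of the binding proteins Igfbp2, Igfbp4 and Igfbp5, Igfbp5 was at 498 and 444 CPM on glass, 813 and 851 on the 1 kPa gel and 1719.8 and 1691 on the 20 kPa gel, and Igfbp2, with 1 kPa lowest, at 165 and 165 CPM on glass, 109.8 and 106 on the 1 kPa gel and 199 and 194 on the 20 kPa gel. Igf1r was at 339 and 318 CPM on glass, 292 and 296 on the 1 kPa gel and 236 and 239.6 on the 20 kPa gel, opposite in order to its ligand, with a log2 fold change of -0.30 (SE 0.06) against 1 kPa.

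Other growth factor pathways had fewer members. Fgfr3, a receptor with a known role in the growth plate, was at 3.88 and 2.9 CPM on glass, 17.01 and 17.8 on the 1 kPa gel and 37.2 and 36.1 on the 20 kPa gel. Fgfr2 was at 119 and 105 CPM on glass, 100.6 and 103 on the 1 kPa gel and 182 and 179 on the 20 kPa gel, so that only 20 kPa stood out. With them, 6 of 36 tested FGF, PDGF, EGF and HGF genes were highest on 20 kPa, and the ligand gene Nrg1 was lowest. In the Hedgehog and Notch list 4 of 27 were highest, among them the antagonist Hhip, at 5.96 and 7.31 CPM on glass, 25.1 and 28.6 on the 1 kPa gel and 53.8 and 50.03 on the 20 kPa gel. The FGF list fell to 3 without 1 kPa replicate 2, without 20 kPa replicate 1 or without 20 kPa replicate 2. The Hedgehog and Notch list fell to 2 without 1 kPa replicate 2.

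TGF-beta and BMP genes were mixed. In the TGF-beta list 5 of 30 were highest and 2 lowest. Tgfb3 was at 138 and 130.0 CPM on glass, 114 and 112 on the 1 kPa gel and 171 and 177 on the 20 kPa gel, with 1 kPa the lowest substrate, and Tgfb2 was at 10.7 and 10.1 CPM on glass, 31.5 and 29.6 on the 1 kPa gel and 41.7 and 40.7 on the 20 kPa gel, with glass the lowest. The response genes Tgfbi and Pmepa1 ran upward from glass, and the pseudoreceptor gene Bambi was at 14.7 and 16.9 CPM on glass, 16 and 19.1 on the 1 kPa gel and 26.5 and 28.7 on the 20 kPa gel. In the BMP list 5 of 32 were highest and Acvrl1 was lowest. The BMP antagonist Chrdl1 was at 2.77 and 2.67 CPM on glass, 1.9 and 2.35 on the 1 kPa gel and 4.97 and 6.59 on the 20 kPa gel, and the ligand gene Bmp5 at 15.3 and 15.8 CPM on glass, 14.5 and 12.8 on the 1 kPa gel and 24.3 and 21.6 on the 20 kPa gel, although 46.7% of the exonic length of Bmp5 overlaps another gene. The BMP count was 3 without either 1 kPa library or either 20 kPa library.

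Retinoic acid is made by aldehyde dehydrogenases and broken down by CYP26 enzymes, and both steps had a gene that was highest on 20 kPa. Aldh1a1 was at 16.5 and 17.2 CPM on glass, 7.46 and 8.74 on the 1 kPa gel and 27.2 and 26.4 on the 20 kPa gel, with 1 kPa the lowest. Cyp26a1 was listed at 0 in both glass libraries, at 0.0975 and 0.336 CPM on 1 kPa and at 1.02 and 1.31 on 20 kPa. Its levels on glass lie under the floor of 3 counts, so no fold change is given, and the gene was not called without 1 kPa replicate 1. Crabp1, a cytosolic binding protein of retinoic acid, was lowest on 20 kPa at 95.3 and 89.8 CPM on glass, 63.1 and 68.5 on the 1 kPa gel and 40.8 and 44.5 on the 20 kPa gel. In all, 5 of 28 tested genes of retinoid and nuclear receptor signalling were highest, and this count was 2 without 1 kPa replicate 1, 3 without 1 kPa replicate 2 and 3 without 20 kPa replicate 2.

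Axon guidance genes had 8 highest and 2 lowest of 56. Plxna4 and Plxnb1 encode receptors of semaphorins, and Gfra1 the co-receptor of GDNF. Plxnb1 was at 19 and 18.2 CPM on glass, 36 and 38.2 on the 1 kPa gel and 63.3 and 60.8 on the 20 kPa gel, and Gfra1 at 209.6 and 211 CPM on glass, 281 and 286 on the 1 kPa gel and 462 and 414 on the 20 kPa gel. Epha1 was among the genes lowest on 20 kPa, at 19.9 and 16.9 CPM on glass, 12.4 and 11.4 on the 1 kPa gel and 4.92 and 5.28 on the 20 kPa gel. Neuronal genes, which bear on the induced neuronal reprogramming the study addressed, had 13 tested genes. Of these Nrcam was highest, and Uchl1 and Ncam1 were lowest on 20 kPa. Uchl1, a deubiquitinase of neurons, was at 8.51 and 8.82 CPM on glass, 6.68 and 6.5 on the 1 kPa gel and 4.09 and 3.39 on the 20 kPa gel. Tubb3, a tubulin used as an early neuronal marker, was no member, with 36.5 and 35.6 CPM on glass, 19.2 and 19.5 on the soft gel and 20.7 and 21.2 on 20 kPa.

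The 15 genes lowest on 20 kPa by the largest changes were of mixed function. Adcyap1r1, the receptor of the neuropeptide PACAP, was at 24 and 22.4 CPM on glass, 12.9 and 12.3 on the 1 kPa gel and 4.83 and 4.6 on the 20 kPa gel. Siglecg, a sialic acid binding lectin, was at 38.3 and 34.3 CPM on glass, 14.1 and 15.1 on the 1 kPa gel and 7.55 and 7.51 on the 20 kPa gel. Fam169b was at 25 and 25.3 CPM on glass, 17.3 and 16.3 on the 1 kPa gel and 8.19 and 8.04 on the 20 kPa gel. All 3 ran downward from glass through 1 kPa to 20 kPa with no overlap. Adm encodes adrenomedullin, a peptide that is induced in hypoxia, and was at 84 and 80.4 CPM on glass, 112 and 107 on the 1 kPa gel and 41.8 and 45 on the 20 kPa gel. Ampd3, an AMP deaminase, was at 87.2 and 85.4 CPM on glass, 89.5 and 94.4 on the 1 kPa gel and 46.8 and 43.2 on the 20 kPa gel. For Adm 1 kPa was the highest substrate, for Ampd3 there was no call between 1 kPa and glass, and in both genes 20 kPa stood clearly below. Lars2, a mitochondrial leucyl-tRNA synthetase, ranked among the 15 but measured 1104 and 3336 CPM on glass, 2193 and 1069 on the 1 kPa gel and 704 and 1061 on the 20 kPa gel. Its libraries varied widely within each substrate, and it was no longer called with total counts, with DESeq2, with no filter, or without glass replicate 2, 1 kPa replicate 1, 20 kPa replicate 1 or 20 kPa replicate 2. An identifier with no name in the annotation, ENSMUSG00000119584, took 5.1% of scaled counts in glass replicate 2 and 2.9% in 1 kPa replicate 1, the libraries with the highest Lars2, and 0.947% to 1.31% in the other 4, and its part in the Lars2 values was not tested.

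G2 and mitosis genes formed the largest group of the genes lowest on 20 kPa, with 16 of 35 tested (45.7%) and none highest. Entry into mitosis is driven by cyclin B with its kinase, Polo-like kinase 1 promotes spindle assembly, and CDC20 activates the complex that ends mitosis. Ccnb1 was at 87.6 and 87.9 CPM on glass, 45.3 and 43.5 on the 1 kPa gel and 35.7 and 34.1 on the 20 kPa gel, and Ccnb2 at 56.9 and 58 CPM on glass, 26 and 27.3 on the 1 kPa gel and 20.2 and 20.1 on the 20 kPa gel. Plk1 was at 64.8 and 63.9 CPM on glass, 38.9 and 42.2 on the 1 kPa gel and 28.6 and 27.5 on the 20 kPa gel. Cdc20 was at 107 and 102 CPM on glass, 50.1 and 51.5 on the 1 kPa gel and 39.5 and 41.8 on the 20 kPa gel. For these genes the large step lay between glass and the gels, and 20 kPa was lower than 1 kPa by a smaller step. The spindle genes Kif2c, Tpx2, Prc1 and Anln, the centromere genes Cenpa and Cenpe, the checkpoint gene Bub1b, and Birc5, Ccna2, Ect2 and Kif20a completed the 16 together with Mki67. Kif20a is overlapped over 29.3% of its exonic length. Mki67, the gene of the proliferation marker Ki-67, was at 297 and 294 CPM on glass, 177 and 183 on the 1 kPa gel and 150.0 and 146 on the 20 kPa gel.

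All 16 mitosis genes were called lower on 1 kPa than on glass. The list's median log2 fold change was -0.96 for 20 kPa against glass, -0.22 for 20 kPa against 1 kPa and -0.72 for 1 kPa against glass. Kif2c had the largest change against 1 kPa, -0.60 (SE 0.09), and it was the only gene of the list that reached 1.5-fold in both contrasts. The count was 8 without 1 kPa replicate 2 and 10 without 20 kPa replicate 2. S phase genes had 3 of 35 lowest (Tk1, Mcm3 and Mcm2), a count that was 0 without 1 kPa replicate 2 or without 20 kPa replicate 1 and 7 without either glass library. Cdkn1c, an inhibitor of cyclin-dependent kinases, was highest on 20 kPa at 19.1 and 14.8 CPM on glass, 18.2 and 17.3 on the 1 kPa gel and 44.3 and 43.6 on the 20 kPa gel, with 30.6% of its exonic length overlapped by another gene.

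Many promoters of mitotic genes carry a CCAAT box, bound by NF-Y, and a cell cycle genes homology region (CHR), through which DREAM and MuvB complexes act. The promoters of 4 of the genes lowest on 20 kPa are shown because their windows hold both. They are RefSeq sequences of build GRCm38.p6, in lower case on the strand of the gene, ending at or just before the annotated transcription start. Capitals mark the CCAAT box (CCAAT, or ATTGG where it lies on the other strand) and the CHR (TTTGAA or TTCAAA).
Cdc20: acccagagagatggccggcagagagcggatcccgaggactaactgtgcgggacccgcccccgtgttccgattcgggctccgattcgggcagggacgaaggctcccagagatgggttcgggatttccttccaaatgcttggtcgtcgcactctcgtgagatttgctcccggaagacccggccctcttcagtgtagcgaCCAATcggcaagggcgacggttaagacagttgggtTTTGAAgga
Ccnb2: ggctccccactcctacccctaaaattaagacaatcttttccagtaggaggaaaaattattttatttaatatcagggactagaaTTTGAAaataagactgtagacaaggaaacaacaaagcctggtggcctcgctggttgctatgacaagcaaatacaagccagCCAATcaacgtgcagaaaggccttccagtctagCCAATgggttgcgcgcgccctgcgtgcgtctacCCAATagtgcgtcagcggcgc
Mki67: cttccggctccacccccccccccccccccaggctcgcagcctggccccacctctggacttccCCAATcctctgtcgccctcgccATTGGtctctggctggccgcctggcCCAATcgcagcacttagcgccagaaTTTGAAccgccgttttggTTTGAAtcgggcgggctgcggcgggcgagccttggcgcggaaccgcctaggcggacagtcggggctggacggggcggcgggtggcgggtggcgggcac
Ect2: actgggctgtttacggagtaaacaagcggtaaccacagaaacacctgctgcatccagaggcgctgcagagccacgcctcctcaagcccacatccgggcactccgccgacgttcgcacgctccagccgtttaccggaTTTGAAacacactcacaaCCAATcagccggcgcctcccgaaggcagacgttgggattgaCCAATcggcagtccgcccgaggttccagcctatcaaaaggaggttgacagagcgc

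The Cdc20 window at chr4:118437353-118437593, the Ccnb2 window at chr9:70421555-70421804, the Mki67 window at chr7:135716380-135716629 and the Ect2 window at chr3:27153879-27154128 are all on the minus strand. Across the mitosis genes lowest on 20 kPa with a RefSeq window, 13 in number, 10 of 15 windows of 250 bases before and 50 after the start (66.7%) held both motifs. The share was 62.5% of 16 windows for the tested genes of the list that were not members, and 4.82% of all 14286 windows of tested genes. A match is a description of letters and not evidence of binding.

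Immediate early genes are transcribed within minutes of a stimulus and encode mainly transcription factors. On 20 kPa 11 of 27 tested (40.7%) were lowest and none was highest. Klf4 was at 145 and 129 CPM on glass, 81.8 and 79.8 on the 1 kPa gel and 54.5 and 55.4 on the 20 kPa gel. Myc was at 77.6 and 74.4 CPM on glass, 70.5 and 70.2 on the 1 kPa gel and 53.4 and 53.7 on the 20 kPa gel, and Btg2 at 86.8 and 79.2 CPM on glass, 89.3 and 84.6 on the 1 kPa gel and 60.5 and 58.5 on the 20 kPa gel. Klf4 stepped down from glass through 1 kPa, while Myc and Btg2 had no call between glass and 1 kPa. Maff, Ier5, Jund, Klf2, Jun and Fosl2 were also lowest on 20 kPa. Fosl1 and Ier3 had another order, with 1 kPa highest: Ier3 was at 118 and 114 CPM on glass, 225 and 229 on the 1 kPa gel and 107 and 102 on the 20 kPa gel, and Fosl1 at 14 and 12.8 CPM on glass, 22 and 22.6 on the 1 kPa gel and 10.3 and 11.2 on the 20 kPa gel. Across the 11, 1 kPa was above glass for 2, below for 4 and without a call for 5. None of the 11 reached 1.5-fold in both contrasts, and the count was 6 without 20 kPa replicate 1.

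Some feedback phosphatases and heat shock proteins were also lowest on 20 kPa. Of 22 ERK pathway feedback genes 3 (Dusp1, Dusp10 and Hmga1) were lowest and none highest, and of 25 cytosolic chaperones Hspa1a and Hspa1b were lowest and Dnaja1 was highest. The shares lowest were 13.6% and 8%, beside 2.8% of all tested genes. Median log2 fold changes against 1 kPa were -0.21 for the feedback list and -0.02 for the chaperones. Of the chaperones 4 were called higher and 4 lower on 20 kPa than on 1 kPa. Dusp1, which removes phosphate from MAP kinases, was at 228 and 221 CPM on glass, 209 and 199 on the 1 kPa gel and 126 and 128 on the 20 kPa gel. In a count made after the members had been seen, 4 of 19 dual specificity phosphatases (21.1%: Dusp1, Dusp8, Dusp10 and Dusp16) were lowest and none highest. Of 13 genes of the HSP70 family 4 were lowest (30.8%: Hspa1a, Hspa1b, Hspa4l and Hspa12a). Hspa1b, the inducible HSP70, was at 68.4 and 67.6 CPM on glass, 42.8 and 41.9 on the 1 kPa gel and 29.8 and 30.4 on the 20 kPa gel. Hspa1a and Hspa1b are near-identical copies between which reads can be shared, so their separate values are uncertain. Both are part of the HSP70 count. Hspa1a was not called with DESeq2, without 1 kPa replicate 2 or without 20 kPa replicate 2, and Dusp10 not with DESeq2 or without any 1 of the 4 gel libraries. Of potassium channel genes 5 of 35 (14.3%) were highest and none was lowest, also counted after the fact.

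Glycolysis genes that were members were lowest on 20 kPa, most of them with 1 kPa highest. The list of glycolysis and hypoxia genes had 40 tested identifiers, of which 10 (25%) were lowest on 20 kPa and none highest. For 9 of the 10, 1 kPa was called above glass. Slc2a1, the glucose transporter GLUT1 at the start of the pathway, was at 148 and 144 CPM on glass, 229 and 238 on the 1 kPa gel and 124 and 121 on the 20 kPa gel, and Hk1, the hexokinase, at 185 and 173 CPM on glass, 212 and 216 on the 1 kPa gel and 142 and 146 on the 20 kPa gel. Aldoa was at 1108 and 1056 CPM on glass, 1191 and 1236 on the 1 kPa gel and 865 and 854 on the 20 kPa gel. Tpi1 was at 532 and 519 CPM on glass, 687 and 705 on the 1 kPa gel and 433 and 452 on the 20 kPa gel. For each of these the gap between 1 kPa and 20 kPa exceeded that between glass and 20 kPa.

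The later steps of the pathway behaved alike. Gapdh, often used as a reference gene, was at 1947 and 1856 CPM on glass, 2050.1 and 2218 on the 1 kPa gel and 1463 and 1471 on the 20 kPa gel, a log2 fold change of -0.54 (SE 0.06) from 1 kPa and -0.37 (SE 0.06) from glass. Pgk1 was at 678 and 716 CPM on glass, 851 and 874 on the 1 kPa gel and 549.9 and 561 on the 20 kPa gel. Pgam1 was at 195 and 185 CPM on glass, 229 and 236 on the 1 kPa gel and 157 and 142 on the 20 kPa gel, and Eno1 at 2407 and 2338 CPM on glass, 2618 and 2806 on the 1 kPa gel and 1958 and 1938 on the 20 kPa gel. Pkm, the pyruvate kinase, was at 3055 and 3029 CPM on glass, 3205 and 3321 on the 1 kPa gel and 2279 and 2361 on the 20 kPa gel and was the exception, with no call between 1 kPa and glass. Ak4, a mitochondrial adenylate kinase induced in hypoxia, completed the 10 at 27.8 and 32.3 CPM on glass, 63.9 and 67.8 on the 1 kPa gel and 25.9 and 25.2 on the 20 kPa gel. Over the whole list the median log2 fold change was 0.10 for 20 kPa against glass and -0.64 against 1 kPa. None of the 10 reached 1.5-fold in both contrasts, and the alternatives that keep the rule gave 9 to 11.

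**Figure D4:**
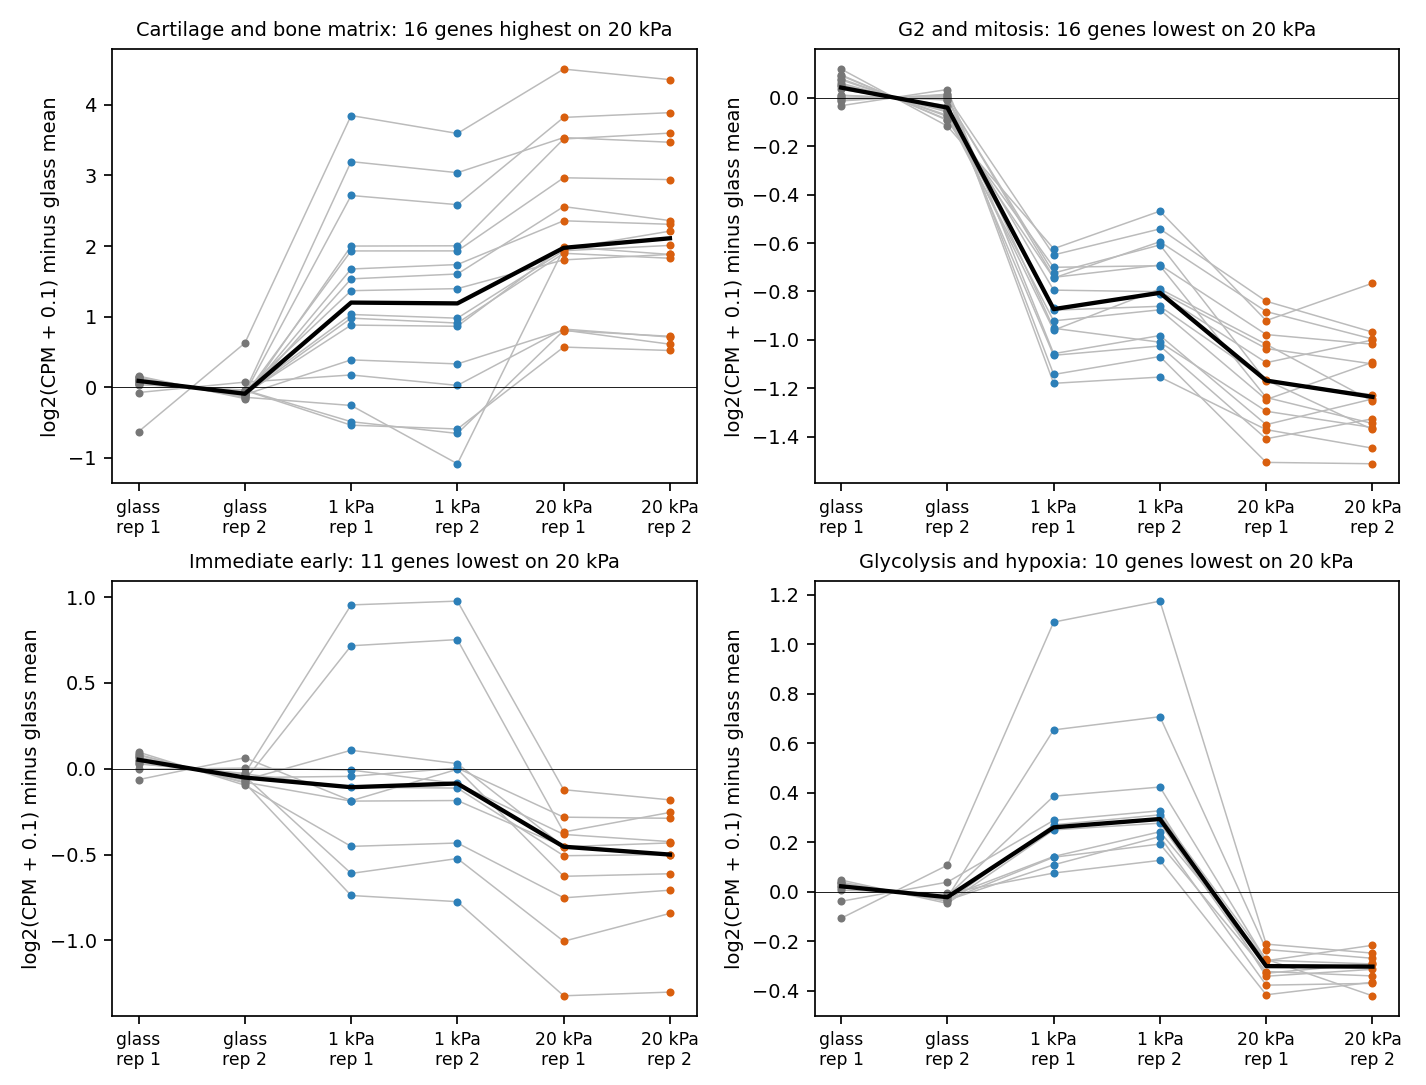
Thin lines are single genes and thick black lines their median, as log2(CPM + 0.1) minus the mean of the 2 glass libraries, across the 6 libraries, for the members of 4 lists. The median of the 16 cartilage genes climbs from glass through 1 kPa to 20 kPa, although 1 kPa was below glass for 2 of them and without a call for 2. The 16 mitosis genes descend in that order, whereas for the 10 glycolysis genes 1 kPa lies above glass and 20 kPa below it.

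Hypoxia-inducible factors bind the core sequence ACGTG. The promoter of Pgk1, a classical target, is shown because both strands of its window hold the core, with capitals marking ACGTG or its reverse complement CACGT.
Pgk1: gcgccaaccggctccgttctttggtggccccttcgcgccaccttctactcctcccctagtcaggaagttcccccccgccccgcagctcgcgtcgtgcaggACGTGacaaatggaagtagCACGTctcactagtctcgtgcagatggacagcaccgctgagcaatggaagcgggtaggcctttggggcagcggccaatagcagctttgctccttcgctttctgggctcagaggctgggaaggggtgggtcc

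The Pgk1 window at chrX:106186850-106187099 is on the plus strand in the same build. The core occurred in 9 of 19 windows (47.4%) of the 10 glycolysis genes lowest on 20 kPa. It occurred in 52.9% of 34 windows of the other tested genes of the list and in 24.6% of all windows. The core is contained in the E-box CACGTG, so a match does not name a factor.

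For the other motifs the shares are given over all members. Windows were found for 499 genes highest on 20 kPa (681 windows) and 348 lowest (500 windows). The TATA box (TATAAA) was in 10.3% of windows of the genes highest on 20 kPa, in 5.6% of those lowest and in 7.41% of all. The TEAD site (GGAATG) was in 15.3%, 12% and 12.5% in the same order, and the AP-1 site (TGANTCA) in 6.46%, 5% and 5.54%. These 3 motifs, and the ATF4 element and NRF1 site given below, had their largest share among the genes highest on 20 kPa. The ATF4 element (TGATGNAA) was in 3.38%, 2.2% and 2.34%, the cAMP response element (TGACGTCA) in 2.2%, 2.6% and 2.93%, and the E-box in 8.22%, 7.8% and 9.55%. The kappaB site was in 0.147%, 1.2% and 0.448%, the CArG box in 1.03%, 2.2% and 1.32%, and the NRF1 site in 1.91%, 1.4% and 1.83%. The CCAAT box was in 37.9%, 41.8% and 37.3%, and the CHR in 14.1%, 18.6% and 12.1%. The core ACGTG was in 18.6%, 23.8% and 24.6%. The kappaB site, CArG box, CCAAT box and CHR had their largest share among the genes lowest on 20 kPa. Among the lowest and the highest, the kappaB site was in only 6 and 1 windows and the CArG box in 11 and 7. Of the 93 windows of lowest genes with a CHR, 12 were those of the mitosis genes. All motifs were searched on both strands, and these shares carry no test.

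Redox and iron genes were divided between the directions. Enzymes of the pentose phosphate pathway, which make NADPH, were lowest on 20 kPa: Pgd was at 261 and 248 CPM on glass, 218 and 223 on the 1 kPa gel and 175 and 177 on the 20 kPa gel, and G6pdx and Tkt followed the same order. Me1, another source of NADPH, was at 97.6 and 101.2 CPM on glass, 92.6 and 100.6 on the 1 kPa gel and 76.7 and 75.1 on the 20 kPa gel, with only 20 kPa apart. Nfe2l2, the gene of NRF2, and its target Txnrd1 were also lowest, with log2 fold changes of -0.17 and -0.30 against glass, which makes 6 of 32. Gpx3, a secreted glutathione peroxidase, was highest on 20 kPa at 349 and 341 CPM on glass, 644 and 659 on the 1 kPa gel and 913 and 935 on the 20 kPa gel. Tfrc, the transferrin receptor that takes iron up, was highest as well, at 122 and 144 CPM on glass, 154 and 137 on the 1 kPa gel and 193 and 189.8 on the 20 kPa gel, alongside the exporter gene Slc40a1. The 6 lowest became 2 without 1 kPa replicate 2 and 3 without 20 kPa replicate 2.

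Genes of the cytoskeleton and of mechanical signalling had 30 members among 172 tested genes of 7 lists (17.4%), beside 7.07% of all tested genes. The share lowest on 20 kPa was 23.8% for tubulins, 17.1% for the Hippo list, 14.3% for mechanosensitive channels and caveolae and 13.8% for MRTF/SRF and contractile genes. It was 13.3% for nuclear lamina and LINC complex genes, 5% for actin and cofilin genes and 3.23% for integrins and focal adhesions. The lamina and LINC members Lbr and Syne1 and the actin list's member Dstn differed from 1 kPa by -0.24, -0.21 and -0.20 (log2). None of them was called with libraries scaled by total counts, and Lbr and Syne1 were not called with DESeq2 either. Of all tested genes 2.8% were lowest. For the tubulin, Hippo, channel and contractile lists, the median log2 fold changes against glass were -0.33, -0.21, -0.165 and -0.74. Against 1 kPa they were 0.01, 0.02, -0.07 and 0.05 in the same order. Genes called higher and lower on 20 kPa than on 1 kPa numbered 3 and 5, 5 and 8, 5 and 5, and 8 and 5. Of the 29 MRTF/SRF and contractile genes, 1 was highest (Mylk, a myosin light chain kinase, at 17.8 and 17.9 CPM on glass, 26.9 and 29.7 on the 1 kPa gel and 46.1 and 49.1 on the 20 kPa gel) and 4 were lowest. Zyx, which encodes the focal adhesion protein zyxin, was at 709 and 667 CPM on glass, 361 and 366 on the 1 kPa gel and 279 and 287 on the 20 kPa gel. Acta2, the smooth muscle actin of myofibroblasts, was no member because 1 kPa was lowest, with 795 and 789.5 CPM on glass, 297 and 324 on the soft gel and 374 and 387 on 20 kPa. Actb, Cfl1 and Lmna lay high on glass and close together on the gels, with log2 fold changes of 0.02, 0.04 and 0.02 between the gels. The 4 lowest became 1 without 1 kPa replicate 2 or without 20 kPa replicate 2.

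In the Hippo list 3 of 35 genes were highest (Tgfb2, Amot and Tead2) and 6 lowest. Axl, a receptor kinase and YAP target, was at 681 and 628 CPM on glass, 541 and 564 on the 1 kPa gel and 388 and 389 on the 20 kPa gel, and Amotl2, a scaffold that restrains YAP, at 672 and 617 CPM on glass, 545 and 562 on the 1 kPa gel and 398 and 399 on the 20 kPa gel. Ankrd1, a YAP target, was lowest on 20 kPa at 12.5 and 13.6 CPM on glass, 6.14 and 7.23 on the 1 kPa gel and 4.44 and 4.75 on the 20 kPa gel. The targets Ccn1 and Ccn2 were no members and ran in opposite directions, Ccn1 at 569 and 582 CPM on 20 kPa against 981 and 901 on glass and Ccn2 at 1006 and 947 against 598 and 567. The 6 lowest became 3 without 1 kPa replicate 2, 3 without 20 kPa replicate 1 and 2 without 20 kPa replicate 2. Ankrd1 was not called in those 3 fits. The 3 highest became 5 without glass replicate 1 and 6 without glass replicate 2.

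Tubulins had 5 of 21 genes lowest and none highest. Tubb6 was at 254 and 239.5 CPM on glass, 174 and 183 on the 1 kPa gel and 143 and 141 on the 20 kPa gel, and Tuba1c at 101.3 and 95.5 CPM on glass, 74.9 and 82.7 on the 1 kPa gel and 59.6 and 65.2 on the 20 kPa gel. The tubulin count was 1 without 1 kPa replicate 2, 2 without 20 kPa replicate 1 and 3 without 20 kPa replicate 2. Piezo2, a stretch-gated cation channel, was highest on 20 kPa at 11.7 and 13.5 CPM on glass, 13.8 and 17.4 on the 1 kPa gel and 26 and 26.4 on the 20 kPa gel. Tmem63a, another mechanically gated channel, was lowest at 122 and 105 CPM on glass, 111 and 117 on the 1 kPa gel and 74.5 and 76.2 on the 20 kPa gel, with glass and 1 kPa overlapping. The other lowest genes of the channel and caveolae list, Ehd2 and Cavin1, differed from 1 kPa by -0.18 and -0.17 on the log2 scale. Neither was called with total counts. Of 31 integrin and adhesion genes, the collagen-binding integrin genes Itga1 and Itga11 were highest (6.45%) and Src was lowest (3.23%). These shares are near the 4.26% and 2.8% of all tested genes. Itga11 was at 176 and 174 CPM on glass, 169 and 165 on the 1 kPa gel and 223 and 219 on the 20 kPa gel.

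Chromatin enzymes are the subject of the study's title. Over the 5 lists of such genes 7 of 124 tested genes (5.65%) were members in either direction, near the 7.07% of all tested genes. None of 20 histone acetyltransferases and bromodomain cofactors was a member in either direction, and under the alternatives up to 2 of them were lowest. Ep300, which encodes p300, was at 109 and 104 CPM on glass, 121 and 117 on the 1 kPa gel and 109 and 99.7 on the 20 kPa gel. Crebbp was at 77.5 and 72 CPM on glass, 88 and 93 on the 1 kPa gel and 77.7 and 74.9 on the 20 kPa gel, and Kat2a, the acetyltransferase GCN5, at 57.3 and 55.5 CPM on glass, 66.2 and 69.4 on the 1 kPa gel and 58 and 58 on the 20 kPa gel. In these 3 genes 1 kPa was highest, and the libraries from 20 kPa overlapped or adjoined those from glass. Of 18 histone deacetylases only Hdac7 was a member, lowest at 184 and 164 CPM on glass, 208 and 215 on the 1 kPa gel and 144 and 161 on the 20 kPa gel, and Hdac1 differed by -0.08 and 0.01 on the log2 scale. Hdac7 was not called without glass replicate 1 or without 20 kPa replicate 1.

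Among 45 histone methyltransferases and demethylases, Jmjd6 and Kmt5a were lowest on 20 kPa. Jmjd6 was at 52 and 57.2 CPM on glass, 63.3 and 65.1 on the 1 kPa gel and 41.4 and 45.3 on the 20 kPa gel. Of 15 DNA methylation enzymes, the maintenance pair Uhrf1 and Dnmt1 was lowest and Gadd45a was highest. Uhrf1, which guides DNMT1 to newly replicated DNA, was at 85.9 and 74.1 CPM on glass, 67.4 and 73.3 on the 1 kPa gel and 55.9 and 56.6 on the 20 kPa gel. It was not called without 1 kPa replicate 2, and Kmt5a, Dnmt1, Gadd45a and Smarce1 were each lost in at least 3 of the 6 fits without 1 library. Of 26 chromatin remodelers Smarce1 was highest, with log2 fold changes of 0.20 and 0.20. The nuclear actin importer gene Ipo9 and the exporter gene Xpo6 were no members, with log2 fold changes on 20 kPa against 1 kPa of -0.02 and -0.27.

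Identity genes of fibroblasts were found at both ends. Of 29, 6 were highest and 3 lowest on 20 kPa. Dpt, a matrix protein of dermal fibroblasts, was at 17.6 and 18.1 CPM on glass, 24.6 and 27.1 on the 1 kPa gel and 47.5 and 46.2 on the 20 kPa gel. Ly6a and Cd34, surface markers of fibroblast progenitors, were lowest: Ly6a was at 444 and 486 CPM on glass, 313 and 295 on the 1 kPa gel and 239.5 and 262 on the 20 kPa gel and Cd34 at 77.7 and 78.8 CPM on glass, 41 and 44 on the 1 kPa gel and 36.3 and 35.5 on the 20 kPa gel. Pi16 of the same list was instead highest, at 36.6 and 35.4 CPM on 20 kPa. Its level was 30.9 and 29.7 CPM on 1 kPa and 0.74 and 0.986 on glass. Cd34 and Pi16 differed from 1 kPa by -0.24 and 0.25 on the log2 scale, and neither was called with DESeq2. The 6 highest became 3 without 1 kPa replicate 1, 2 without 1 kPa replicate 2 and 3 without 20 kPa replicate 1, and the 3 lowest became 1 without 20 kPa replicate 1.

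Markers of other cell types were measured as panels of 5 to 10 defining markers and as longer lists of 14 to 18 genes, beside 19590 to 32140 CPM for the fibroblast panel. Summed over each panel, keratinocyte markers gave 18.7 to 27.9 CPM, endothelial 16.97 to 40.0, leukocyte 11.7 to 15.3, skeletal muscle 10.1 to 21.5 and Schwann cell and melanocyte 16.3 to 24.8. The pericyte panel gave 197 to 332 CPM, of which Cspg4 made up most, and Rgs5 was under 1 CPM. Over the longer lists the sums were 53.1 to 114 CPM for keratinocytes, 74.3 to 124 for endothelium, 18.7 to 80.8 for leukocytes, 17.6 to 61.9 for skeletal muscle, 269 to 395 for Schwann cells and melanocytes and 331 to 431 for pericytes and vascular smooth muscle. The Schwann cell sum was mostly Pmp22, at 361 and 363 CPM on glass, 215 and 219 on the 1 kPa gel and 242 and 231 on the 20 kPa gel, and Erg was the largest single part of the endothelial sum in every library. The endothelial list was the only 1 of these 6 whose sum was highest in both libraries from 20 kPa, at 124 and 121 CPM. Erg, itself a member by the rule, gave 61.8 and 57.1 CPM of these sums. The panel of 9 endothelial markers, which does not hold Erg, was highest on 1 kPa, at 40.0 and 36.3 CPM against 32.1 and 32.8 on 20 kPa. The part of endothelial cells in the results was not tested. No marker gene of keratinocytes, leukocytes or skeletal muscle was a member. Of 12 tested Schwann cell and melanocyte genes 3 were highest on 20 kPa. S100b, also made by chondrocytes, was at 5.32 and 4.76 CPM on glass, 5.85 and 5.21 on the 1 kPa gel and 15.2 and 15.01 on the 20 kPa gel, and Gfap at 0.74 and 0.638 CPM on glass, 0.682 and 0.729 on the 1 kPa gel and 3.36 and 3.54 on the 20 kPa gel, while Sox10, a defining factor of both lineages, was at 2.19 and 2.13 CPM on 20 kPa and 4.58 and 4.15 on 1 kPa. Of 16 endothelial genes Kdr and Erg were highest, and Erg was at 46.5 and 42.8 CPM on glass, 30.7 and 29.4 on the 1 kPa gel and 61.8 and 57.1 on the 20 kPa gel. The endothelial defining markers Pecam1 and Cdh5 were instead highest on 1 kPa, with 8.09 and 7.96 and 9.79 and 7.96 CPM.

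Over the chemokine, NF-kB and interferon lists 8 of 106 tested genes (7.55%) were members, near the 7.07% of all tested genes. Of 38 chemokine and cytokine genes 3 were highest on 20 kPa and 1 was lowest, and the list had a median log2 fold change of 1.30 against glass and -1.15 against 1 kPa. Cxcl14 was at 74.2 and 68 CPM on glass, 137 and 129 on the 1 kPa gel and 186 and 196 on the 20 kPa gel, and Csf1 was lowest at 682 and 639.8 CPM on glass, 775 and 763 on the 1 kPa gel and 579 and 587 on the 20 kPa gel. Nfkbiz, an inducible regulator of NF-kB target genes, was at 76.7 and 77.1 CPM on glass, 173 and 174 on the 1 kPa gel and 66.2 and 65.2 on the 20 kPa gel. Its libraries from 1 kPa stood far above those of the other substrates, and glass and 20 kPa lay near each other without overlap. Of 39 interferon-stimulated and antigen presentation genes Ifit3 was the 1 member, at 9.34 and 13.6 CPM on glass, 12.6 and 14.1 on the 1 kPa gel and 27.2 and 26.5 on the 20 kPa gel. Csf1 was not called without 20 kPa replicate 1 or without 20 kPa replicate 2.

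**Figure D5:**
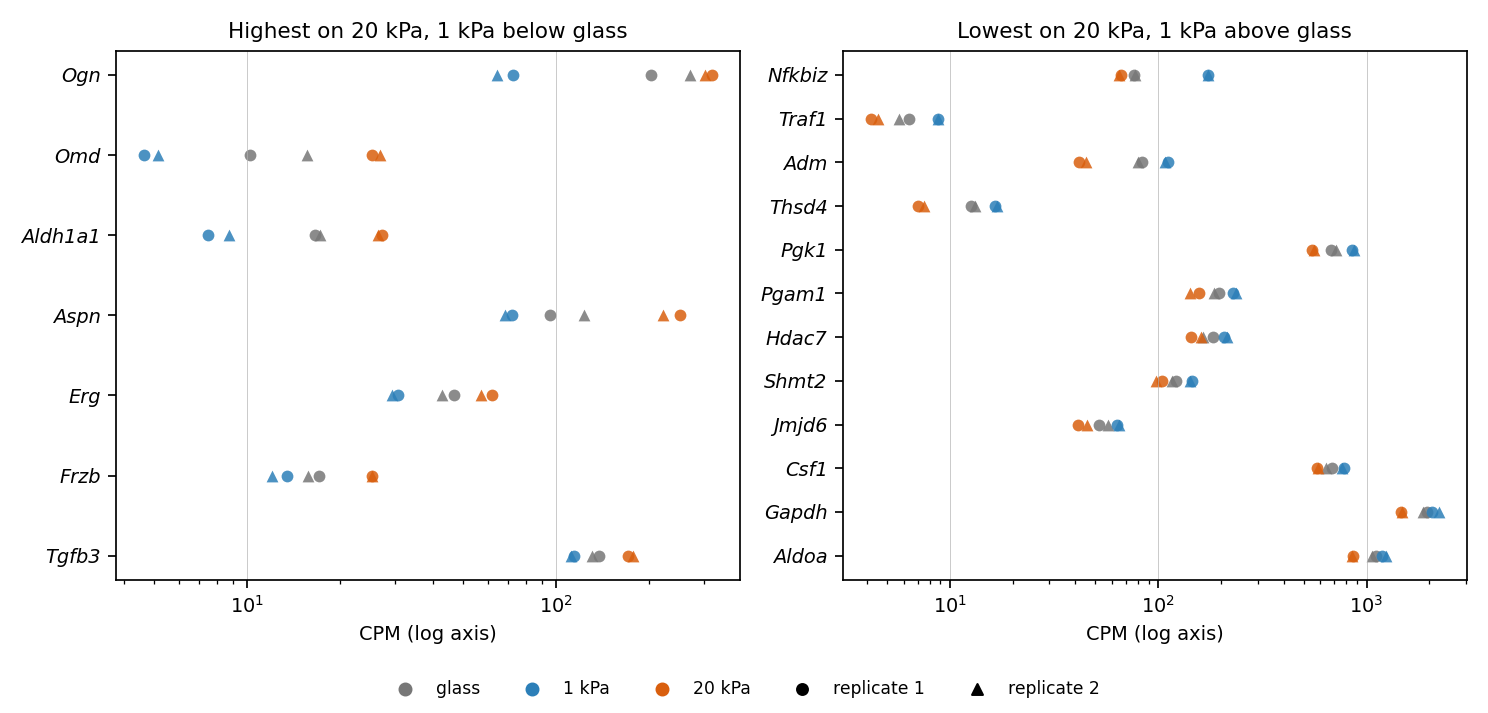
Symbols are the CPM of single libraries on a log axis for the named members in which 1 kPa lies on the far side of glass: 7 genes highest on 20 kPa with 1 kPa below glass (left) and 12 lowest with 1 kPa above glass (right). Glass lies between the gels in each row, for example at 203 and 272 CPM for Ogn, between 64.5 to 72.6 on 1 kPa and 302 to 318 on 20 kPa.

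Members in which glass lay between the gels were the 60 and 47 genes counted above. In those genes the difference between the gels exceeded the difference of 20 kPa from glass. Besides the leucine-rich proteoglycans, the 60 included H19, an imprinted noncoding RNA, and Ptn, which encodes the growth factor pleiotrophin, both named after their values were seen. H19 was at 91 and 87.5 CPM on glass, 76.9 and 78.6 on the 1 kPa gel and 195 and 197 on the 20 kPa gel. Ptn was at 20.9 and 24.2 CPM on glass, 17.3 and 15.4 on the 1 kPa gel and 44.6 and 50.8 on the 20 kPa gel. Tnfrsf11b, the decoy receptor osteoprotegerin, was at 11.5 and 14.4 CPM on glass, 9.41 and 11.2 on the 1 kPa gel and 28.8 and 24.6 on the 20 kPa gel, and Ucma, a cartilage matrix protein, at 14.8 and 19.8 CPM on glass, 10.04 and 9.86 on the 1 kPa gel and 27.1 and 29.1 on the 20 kPa gel, both also named after their values were seen. In the other direction the 47 held 9 of the 10 glycolysis members, with Shmt2, Adm and Thsd4.

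Lists with no member in either direction numbered 7. They included all 34 tested nuclear-encoded subunits of oxidative phosphorylation, 31 cytosolic ribosomal proteins and 12 mitochondrially encoded genes. The oxidative phosphorylation list had a median log2 fold change of -0.15 against glass and 0.07 against 1 kPa, and the ribosomal list one of -0.41 and 0.02.

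In properties that the rule did not use, the members were more often protein-coding than tested genes as a whole, at 95.6% of those highest and 93.2% of those lowest against 84.9%. Median exonic length of protein-coding members was 4910 bases for the highest and 4920 for the lowest, beside 4498 for all. The GC content of exons had medians of 48.9%, 53% and 49.9% in the same order. The genes lowest on 20 kPa were also more abundant, with a median of 63.8 CPM against 22.5 for the highest and 18.3 for all. The test resolves smaller changes at higher counts.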

How the data were processed

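Raw whole-number counts per gene were deposited by the authors without normalisation. The submitters' processing notes name STAR 2.7.10b, featureCounts, Trim Galore, cutadapt and mm10. Settings, annotation and strandedness are not given in the sources, so overlapping and near-identical genes are uncertain. Of 57010 identifiers, 16093 passed filterByExpr, and 98.2% of these matched GENCODE M21. A single quasi-likelihood model (edgeR 4.0.16, R 4.3.3, TMM scaling, a term for group, 3 residual degrees of freedom) covered all 6 libraries, and p-values were adjusted over all tested genes by Benjamini-Hochberg. The rule for members used log2 CPM with a prior count of 2. The script was tested on simulated data. SE is the absolute log2 fold change over the square root of the F statistic, and CPM is given per library (n = 2 per group). Floors of 3 counts cover counting error only.

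The members, the 56 gene lists and the 12 motifs were chosen with earlier results of these data known. The text names the 15 highest and 15 lowest genes by the smaller of both changes (at least 5 CPM in a group), up to 5 per list and direction, 16 fixed genes and those next to the threshold. Of the genes this rule takes, 2 are not reported here. Further genes complete a count or were picked after their values were known, as stated there. Alternatives covered scaling, filter, tool (DESeq2 1.42.0, limma-voom 3.58.1), separate fits, a replicate block and leaving out each library.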

Additional observations from a re-analysis of the deposited data

How the results depend on the processing

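The numbers of genes highest and lowest on 20 kPa were 686 and 451. With DESeq2 they were 417 and 309, with total counts 867 and 285, and with 1.5-fold required in both contrasts 281 and 65. Leaving out 1 library gave 403 to 802 highest and 223 to 587 lowest; where this leaves 1 library on a substrate, that library is assumed to vary like the others. DESeq2's size factors in edgeR gave 642 and 499, upper quartile factors 684 and 434, limma-voom 693 and 438, no filter 706 and 388, a stricter filter 689 and 478, separate fits 785 and 518, and both tests without the overlap condition 687 and 456. In the fit with the replicate block, the counts were 653 and 414, of which 648 and 410 were members; the numbers do not pair the libraries, whose deviations correlated at -0.02 to -0.03 between same-numbered libraries. Over 15 settings with the same rule, 297 genes highest (43.3%) and 126 lowest (27.9%) were called in every one, as were 116 of 213 named members. No member was called in the opposite direction, a count that leaves out members no longer called. DESeq2 gave no adjusted p for 28 members. With 2 libraries per group, small changes were called on little replication, and the cause of the differences between settings was not tested.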

Other observations

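Some members lie side by side in the genome. Counting runs of at least 3 neighbouring tested genes in the same direction (GENCODE M21, GRCm38) gave 9 runs, 7 of genes highest on 20 kPa and 2 of genes lowest. The leucine-rich repeat genes Ecm2, Aspn, Omd and Ogn form 1 run on chromosome 13, from 49504810 to 49624501. Ecm2 had no call between glass and 1 kPa, at 6.61 and 6.5 CPM on glass, 6.97 and 8.07 on the 1 kPa gel and 16 and 13.3 on the 20 kPa gel, whereas in Aspn, Omd and Ogn 1 kPa was lowest. The binding protein genes Igfbp2 and Igfbp5 are neighbours on chromosome 1 with the noncoding gene Pinc, and Cytl1 lies between Stk32b and Msx1 on chromosome 5. Of the runs of genes lowest on 20 kPa, 1 holds Igf1r, Pgpep1l and Fam169b on chromosome 7 and the other Zyx, Epha1 and Olfr456 on chromosome 6. Gene boundaries overlap in some of these runs, as for Zyx and Epha1, whose reads cannot be told apart where they do.

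Further secreted proteins and receptors outside the lists were members, named after their values were seen. Mdk, which encodes the growth factor midkine, was at 2.5 and 1.45 CPM on glass, 14.1 and 13.8 on the 1 kPa gel and 33 and 36.9 on the 20 kPa gel. Apod, which encodes the lipid carrier apolipoprotein D, was at 39.6 and 37.1 CPM on glass, 139.7 and 144 on the 1 kPa gel and 317 and 310.2 on the 20 kPa gel. Both climbed from glass through 1 kPa to 20 kPa without overlap. Agtr2, the type 2 angiotensin receptor, followed the same order at 10.7 and 10.5 CPM on 20 kPa.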
